A study of Mus musculus with 6 samples.

Results

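The 41 genes described here encode proteins of S-phase DNA replication: the machinery that marks origins, loads and switches on the replicative helicase, copies both strands and supplies the nucleotides. The rule names gene symbols and sets no threshold on a measured value, although the list was drawn up with earlier results of these data known. All 41 were found among the 45777 genes of the deposited count table. All 41 were also among the 17210 genes that passed the filter on low counts, with between 261 and 30805 reads per gene and tumor. The tumors were grafts of B16F10, a mouse melanoma cell line, and the study compared grafts grown in the hind footpad with grafts grown in the flank skin. The sequenced set held 3 hind footpad tumors (footpad 1 to 3) and 3 flank skin tumors (flank 1 to 3), 1 library each, and all 6 came from hosts labelled Foxn1-/- at an age of 8 weeks. Foxn1 loss leaves mice without a normal thymus, so mature T cells are scarce. The series title calls the grafts syngeneic, and for syngeneic grafts of these cells the study's methods give female C57BL/6J hosts of a younger age, which conflicts with the Foxn1-/- label, so the host is uncertain. According to the methods, cells of the tumor were isolated at the sites of grafting, with no way of separating them named, while the labels say that the tumors were removed and total RNA extracted. The study describes implantation at both sites of a mouse at the same time and counts replicates of these data as mice, so a footpad and a flank tumor may have come from 1 mouse, but the labels do not say which.

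Before S phase, the origin recognition complex (ORC) sits on origins and, with CDC6 and CDT1, loads the ring-shaped MCM2-7 helicase onto DNA. The kinase CDC7 with its partner DBF4, together with MCM10, CDC45 and the GINS complex, turns the loaded ring into a moving helicase. DNA polymerases then copy the strands with the sliding clamp PCNA, and in dividing cells most of these genes are transcribed in a wave at the G1/S border that depends on E2F transcription factors. Their messenger RNA is therefore widely used as a readout of how many cells in a tissue are cycling.

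RefSeq promoters on GRCm38.p6, each running from 250 bases before to 50 bases after an annotated start, were at hand for 34 of the 41 genes, as 40 promoters. The 7 without an entry were Mcm4, Gins1, Gins2, Gins4, Rfc2, Prim2 and Pole. Promoters were searched on both strands for 4 E2F words, TTTCCCGC, TTTCGCGC, TTTGCCGC and TTTGGCGC. Of the 34 genes, 14 (41.2%) held at least 1 of these words, against 2.26% of all 32851 promoters in the table and 3.62% of the 15487 promoters of tested genes. The word CCAAT occurred in 19 of the 34 (55.9%) and in 37.4% of all promoters, and the word TTTGAA, the core of a cell cycle element known as CHR, in 6 of the 34 (17.6%) and in 17.9% of all promoters. A gene was counted if any of its promoters held the word. The shares over all promoters count each promoter singly, so the units differ. A match is a description of the letters and not evidence of binding. The stretches below are shown because they hold the E2F words of genes whose levels are described further on. They are written 5′ to 3′ in the direction of transcription, with the E2F words in capitals on either strand. In Mcm6, a helicase subunit, the capitals ATTGG also mark a CCAAT word on the opposite strand. The Mcm6 stretch lies on the minus strand at chr1:128359731-128359830, at offsets -125 to -26 from the annotated start, and the Mcm5 stretch on the plus strand at chr8:75109339-75109388, at offsets -170 to -121. In both, words on opposite strands overlap by 4 bases.
Mcm6: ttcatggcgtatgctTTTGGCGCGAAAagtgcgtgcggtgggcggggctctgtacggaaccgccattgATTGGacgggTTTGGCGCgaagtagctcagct
Mcm5: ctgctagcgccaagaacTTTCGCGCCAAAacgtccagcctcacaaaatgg

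Shorter windows of 30 bases are shown for 6 other genes with an E2F word. Those of Pole2 (chr12:69228162-69228191, minus strand), Mcm7 (chr5:138172030-138172059, minus strand), Rfc3 (chr5:151651195-151651224, minus strand) and Orc3 (chr4:34614965-34614994, minus strand) overlap exons of the GENCODE annotation. Those of Pola1 (chrX:93632275-93632304, minus strand) and Cdc6 (chr11:98908002-98908031, plus strand) overlap none.
Pole2: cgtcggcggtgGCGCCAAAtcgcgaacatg
Mcm7: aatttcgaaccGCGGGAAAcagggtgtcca
Pola1: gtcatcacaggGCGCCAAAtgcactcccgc
Rfc3: gcacgcTTTCGCGCtcGCGGGAAAactcta
Orc3: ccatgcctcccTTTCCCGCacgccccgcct
Cdc6: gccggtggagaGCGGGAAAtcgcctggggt

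Levels are CPM, a gene's reads relative to the library size after TMM scaling in edgeR. The libraries held between 46529649 and 66364366 counted reads, so that 3 reads, taken as the detection limit, equalled 0.0438 to 0.0673 CPM. The test between sites was the quasi-likelihood test of edgeR, and a gene was called at a Benjamini-Hochberg adjusted p under 0.05 over all 17210 genes. Fold changes are log2 values of footpad over flank with an approximate standard error (SE), and the mean values carry the SD of 3 tumors. The tumors of a site differed from each other by more than sampling noise, with chi-squares of 62.3 to 578 per gene. The labels do not tie a tumor to an animal. The study treats each as an individual tumor and gives its replicates as mice, so the p-values are taken to measure the spread between tumors of different mice within a site.

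The replication genes were lower in the footpad tumors as a group, but few of them passed the test singly. All 41 had a fitted log2 fold change below 0 after TMM scaling, where 50.3% of all tested genes did, and the number was 40 after upper-quartile scaling, 35 after scaling to melanocyte lineage genes and 32 after scaling to 3 pigment genes. The median of the 41 was -0.54 on the log2 scale, beside -0.004 over all genes, with a range from -1.25 for Gins1 to -0.005 for Orc1. In such bulk samples, fewer replicating cells, less of these transcripts per cell and more RNA from other cells cannot be told apart. In the footpad tumors 4 genes, namely Pole2, Rfc2, Dut and Prim1, were called lower, beside 1.44% of all genes called lower. Of the 4, Pole2 and Dut also changed by 2-fold or more, beside 0.872% of all genes. No member was called higher by edgeR, DESeq2 or limma, 0 were higher at an unadjusted p under 0.05, and 3.43% of all genes were called higher. At an unadjusted p under 0.05, 22 of the 41 were lower, beside 10.5% of all genes. DESeq2, another count test, called 17 of the 41 lower, beside 6.07% of all genes. In simulated data 200 of 17210 genes were changed, with the spread of each gene as estimated by edgeR. There 35.6% of the DESeq2 calls were unchanged genes, against 7.89% of the edgeR calls. These shares depend on how many genes change, so they do not give the share among the calls in the tumors. In the same data DESeq2 called 58 of 100 genes changed 2-fold, and edgeR called 14 of 100. With a tumor left out, 0 members were called by edgeR without footpad 1, footpad 3, flank 2 or flank 3, 5 without flank 1 and 8 without footpad 2. In the 4 fits with 0 calls 16 or 17 members were lower at an unadjusted p under 0.05, beside 6.71% to 9.20% of all genes. Calls over all genes went down as well: 248 genes were called lower with all 6 tumors, and 5, 0, 112 and 10 in those 4 fits. The fold changes of the called genes stayed below 0 in every fit with a tumor left out. On the log2 scale they ran from -1.31 to -1.05 for Pole2 and -1.23 to -0.91 for Dut. Those of Prim1 ran from -0.98 to -0.66 and those of Rfc2 from -0.83 to -0.62. For each of these 4 genes the value nearest to 0 was the one without footpad 1.

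In 20 of the 41 genes every footpad tumor lay below every flank tumor, and in 0 every footpad tumor lay above. Over all genes tested these shares were 14.9% and 17.5%, and among the 9005 genes at or above the level of the lowest member (a mean of 12.2 CPM) 18% lay without overlap on the lower side. The order of the tumors was much the same from gene to gene. Footpad 1 was the lowest of the 6 tumors in 35 genes, and flank 3 was the highest in 26 and flank 2 in 14. Flank 1 was the lowest flank tumor in 35 genes and the highest of all tumors in 1, Orc3. Since the same libraries took these positions in most genes, the 41 genes are not independent of each other.

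**Figure D1:**
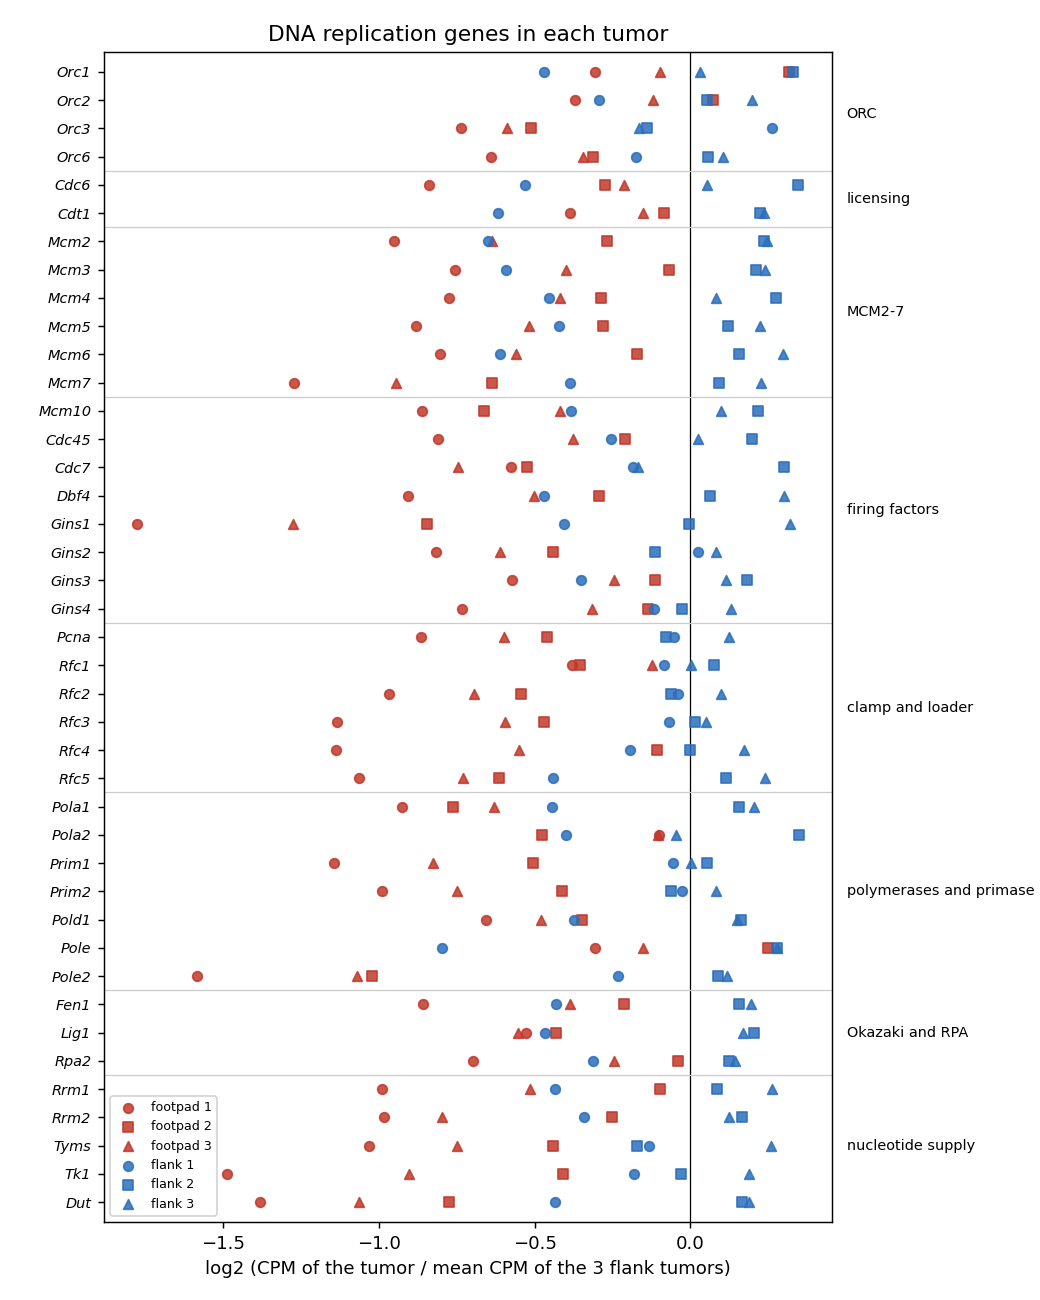
Level of each of the 41 replication genes in each tumor, as the log2 of its TMM-scaled CPM over the mean CPM of the 3 flank tumors (horizontal axis), with genes grouped by role and the 6 tumors told apart by color and marker. The red footpad points lie left of all blue flank points in 20 genes, footpad 1 is the leftmost point in 35, and flank 1 is the leftmost flank point in 35.

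Among the origin recognition genes, ORC3 and ORC6 are subunits of the complex that marks origins. Orc3 measured 57.8, 67.5 and 63.9 CPM in footpad 1 to 3 and 115.5, 87.4 and 85.8 CPM in flank 1 to 3. The sites did not overlap and the log2 fold change was -0.61 (SE 0.16, adjusted p = 0.0665). Orc6 measured 35.2, 44.1 and 43.1 CPM in the footpad and 48.5, 56.9 and 58.9 CPM in the flank tumors, also without overlap (-0.43, SE 0.15, adjusted p = 0.126). Reads on Orc6 can be mixed with those of Vps35 on the other strand, which shares 171 exon bases with it. In all, 13 members share exon bases with a gene on the other strand, and in 11 of them that gene held reads. Orc2, Cdc45, Rfc4, Fen1, Lig1 and Tk1 are among these, and the limit is not repeated for them. Orc1, the ATPase subunit that is itself regulated through the cell cycle, measured 11.6, 17.9 and 13.4 CPM in the footpad and 10.3, 18.0 and 14.7 CPM in the flank tumors. It was the member nearest to no difference (-0.005, SE 0.26), and its fitted sign changed with the scaling. Orc2 ranged from 117 to 159 CPM in the footpad and from 123 to 173 CPM in the flank tumors, with overlap. None of these 4 genes was called.

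The licensing factors CDC6 and CDT1, which help ORC to load the helicase, overlapped between the sites. Cdc6 measured 19.5, 28.9 and 30.1 CPM in the footpad and 24.1, 44.4 and 36.3 CPM in the flank tumors (-0.42, SE 0.26, adjusted p = 0.356). Cdt1 measured 49.2, 60.7 and 58.0 CPM in the footpad and 42.0, 75.2 and 75.9 CPM in the flank tumors (-0.20, SE 0.23, adjusted p = 0.627). Flank 1 held the lowest Cdt1 level of all 6 tumors.

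MCM2 to MCM7 form the 6-membered helicase ring. Only Mcm7 of these 6 was lower in the footpad without overlap, beside 14.9% of all genes. It measured 52.6, 81.8 and 66.0 CPM in footpad 1 to 3 and 97.3, 136 and 149 CPM in flank 1 to 3. Its log2 fold change was -0.93 (SE 0.22, adjusted p = 0.0552), which did not pass the threshold. The Mcm7 locus shares exon bases with Ap4m1 and Cops6 on the other strand and hosts Mir25 and Mir93 on its own, and since the counting is not stated to use strand, reads of the overlapping genes cannot be told apart. Mcm2 measured 148, 238 and 184.5 CPM in the footpad and 183, 338 and 340.2 CPM in the flank tumors (-0.59, SE 0.28, adjusted p = 0.233). As in Mcm2, flank 1 lay within the range of the footpad tumors in Mcm3, Mcm4, Mcm5 and Mcm6, whose log2 fold changes ran from -0.54 for Mcm5 to -0.38 for Mcm3. The plot of FPKM by tumor shows the ring on a scale that allows genes to be compared, since FPKM is corrected for transcript length. Mcm4 had the lowest FPKM of the 6 subunits in every tumor (15.4 to 37.7), Mcm2 or Mcm6 the highest (36.2 to 97.1), and the highest exceeded the lowest by 2.28 to 2.96 times.

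Of the 8 firing factors, 5 were lower in the footpad without overlap, beside 14.9% of all genes, and none was called. Gins1, 1 of the 4 subunits of the GINS complex that holds the active helicase together, had the most negative fold change of all 41 genes. It measured 5.86, 11.2 and 8.29 CPM in footpad 1 to 3 and 15.2, 20.0 and 25.1 CPM in flank 1 to 3. The mean was 8.44 ± 2.66 CPM (SD, n = 3) in the footpad and 20.1 ± 4.95 CPM in the flank tumors, 57.9% lower (-1.25, SE 0.29), and the adjusted p of edgeR was 0.0525. The other GINS genes differed less: Gins2 by -0.61 (SE 0.16, adjusted p = 0.0637), Gins4 by -0.37 (SE 0.18) and Gins3 by -0.30 (SE 0.22). In the GENCODE annotation Gins2 shares 2758 exon bases with Gse1 on the other strand. This exceeds the transcript length of 1161 bases that the deposited counts and FPKM imply for Gins2, so the gene models differ. How many of its counted reads are affected is not known. In FPKM, Gins3 was the lowest of the 4 subunits in every tumor (3.08 to 6.14) and Gins4 the highest (16.5 to 32.6). The kinase gene Cdc7 measured 11.4, 11.9 and 10.2 CPM in the footpad and 15.02, 21.0 and 15.2 CPM in the flank tumors (-0.61, SE 0.19, adjusted p = 0.104), without overlap. Its partner Dbf4 measured 51.4, 78.6 and 68.1 CPM in the footpad and 69.6, 100.7 and 119 CPM in the flank tumors (-0.55, SE 0.23), with overlap. MCM10 and CDC45 are needed to start the helicase. Mcm10 did not overlap (29.3 to 39.7 CPM in the footpad, 40.8 to 61.7 CPM in the flank tumors), whereas Cdc45 did (20.7 to 31.4 CPM and 30.4 to 41.6 CPM).

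The sliding clamp PCNA ties polymerases to DNA, and replication factor C (RFC), a complex of 5 subunits, opens the clamp and loads it. In 5 of these 6 genes the footpad tumors lay lower without overlap, beside 14.9% of all genes, and Rfc2 was called. Rfc2 (chr5:134582690-134598328, GRCm38) measured 46.7, 62.6 and 56.4 CPM in footpad 1 to 3 and 88.7, 87.4 and 97.7 CPM in flank 1 to 3. The means were 55.2 ± 8.00 CPM and 91.3 ± 5.59 CPM (SD, n = 3), 39.5% lower in the footpad (-0.72, SE 0.15, edgeR adjusted p = 0.0384). Lat2, on the other strand, shares 952 exon bases with Rfc2 and held 1145 reads against 25498 on Rfc2 over the 6 tumors. Pcna measured 159.8, 212 and 192 CPM in the footpad and 280.5, 276 and 317 CPM in the flank tumors, a difference of -0.63 (SE 0.15, adjusted p = 0.0592) and no overlap. The pseudogene Pcna-ps2 held 4099 reads against 83252 on Pcna. Rfc5 measured 34.0, 46.5 and 42.9 CPM in the footpad and 52.4, 77.0 and 84.1 CPM in the flank tumors (-0.79, SE 0.21, adjusted p = 0.0702), and shares 499 exon bases with Wsb2, a gene with more reads. Rfc3, with 24.9 to 39.4 CPM in the footpad and 52.0 to 56.5 CPM in the flank tumors, differed by -0.70 (SE 0.18, adjusted p = 0.068). Rfc1, the large subunit, differed least (-0.28, SE 0.13), also without overlap, and Rfc4 overlapped between the sites (16.3 to 33.3 CPM and 31.4 to 40.4 CPM). In FPKM, Rfc2 was the highest RFC subunit in every tumor (25.2 to 57.2), 1.84 to 2.49 times the lowest one, which was Rfc1 or Rfc4. Pcna lay above all of them, at a mean of 133.5 FPKM in the footpad and 206 FPKM in the flank tumors.

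**Figure D2:**
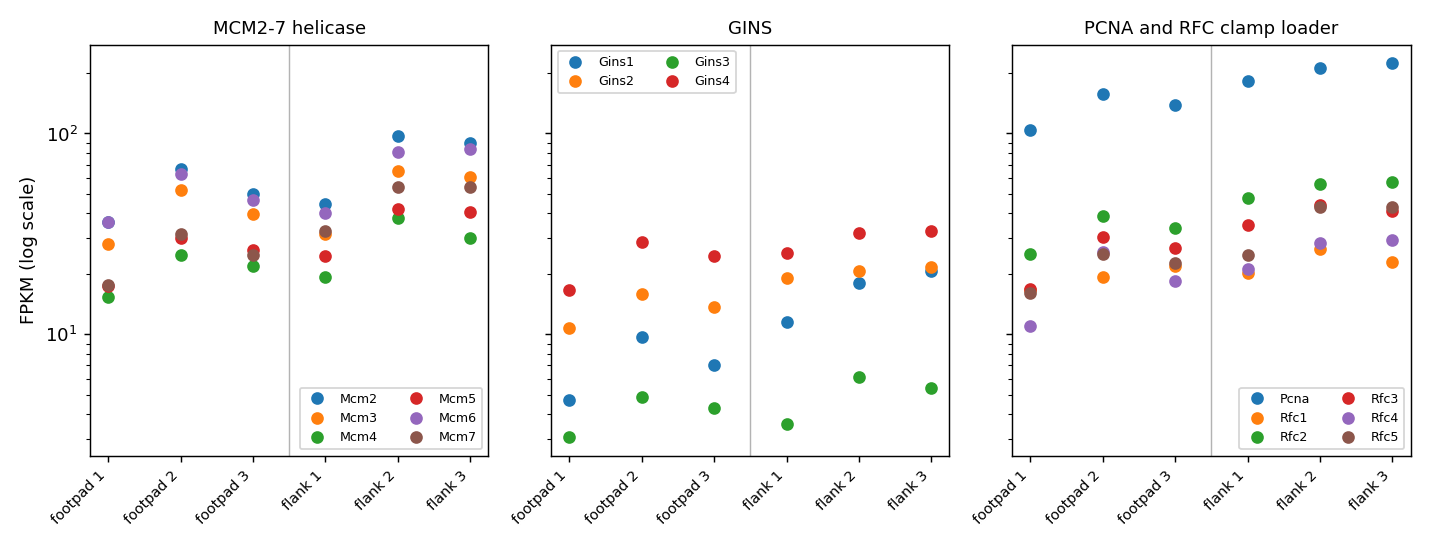
FPKM of the helicase ring, the GINS complex and the clamp with its loader in each of the 6 tumors, on a log scale, 1 point per gene and tumor, with a grey line between the sites. Mcm4, Gins3 and, within RFC, Rfc1 or Rfc4 are lowest, while Gins4 and Rfc2 are the highest of their complexes in all 6 tumors.

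Of the 4 called genes 2 belong to the polymerases and primase. POLE2 is the second subunit of polymerase epsilon, which copies the leading strand. Pole2 (chr12:69201773-69228205, GRCm38) measured 7.54, 11.1 and 10.8 CPM in footpad 1 to 3 and 19.3, 24.1 and 24.6 CPM in flank 1 to 3. Every footpad tumor was below every flank tumor by a wide gap. The means were 9.82 ± 1.98 CPM and 22.6 ± 2.92 CPM (SD, n = 3), 56.6% lower in the footpad (-1.20, SE 0.21, edgeR adjusted p = 0.0269). The catalytic subunit gene Pole measured 60.2, 88.3 and 67.0 CPM in the footpad and 42.8, 90.2 and 90.2 CPM in the flank tumors, with both the lowest and the highest values in the flank (-0.05, SE 0.30). PRIM1 is the catalytic subunit of primase, which makes the RNA primers. Prim1 (chr10:128015215-128030030, GRCm38) measured 29.5, 46.0 and 36.9 CPM in the footpad and 62.7, 67.7 and 65.4 CPM in the flank tumors. Its means were 37.5 ± 8.27 CPM and 65.3 ± 2.48 CPM (SD, n = 3), 42.6% lower in the footpad (-0.80, SE 0.17, edgeR adjusted p = 0.0468). The 3 flank tumors lay close together in Prim1. The same held for Prim2, the large primase subunit, with 29.2, 43.7 and 34.6 CPM in the footpad and 57.1, 55.7 and 61.5 CPM in the flank tumors (-0.70, SE 0.17, adjusted p = 0.0578).

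POLA1, the catalytic subunit of polymerase alpha, extends the primers. Pola1 measured 46.5, 52.2 and 57.2 CPM in the footpad and 65.0, 98.5 and 102 CPM in the flank tumors, without overlap (-0.77, SE 0.19, adjusted p = 0.0637). Its partner subunit Pola2 overlapped, at 16.2, 12.5 and 16.1 CPM in the footpad and 13.2, 22.1 and 16.8 CPM in the flank tumors (-0.22, SE 0.23). Pold1, the catalytic subunit of the lagging strand polymerase delta, ranged from 39.4 to 48.8 CPM in the footpad and from 47.9 to 69.5 CPM in the flank tumors (-0.49, SE 0.18, adjusted p = 0.144), and the sites overlapped through flank 1 alone.

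FEN1 trims the flaps between Okazaki fragments, LIG1 joins the fragments and RPA2 is part of the single-strand binding complex RPA. The sites overlapped in all 3 genes. Fen1 ranged from 44.2 to 69.1 CPM in the footpad and from 59.4 to 91.7 CPM in the flank tumors (-0.46, SE 0.23). Lig1 measured 39.7, 42.4 and 39.0 CPM in the footpad and 41.4, 65.9 and 64.3 CPM in the flank tumors, so that flank 1 lay among the footpad tumors (-0.50, SE 0.19, adjusted p = 0.156). Rpa2 ranged from 25.3 to 40.0 CPM in the footpad and from 33.1 to 45.3 CPM in the flank tumors (-0.30, SE 0.21).

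The nucleotide supply genes had the most negative median of the 8 roles, at -0.72, next to -0.70 for the polymerases and primase, -0.67 for clamp and loader, -0.58 for firing factors, -0.51 for MCM2-7, -0.46 for the Okazaki fragment and RPA genes, -0.31 for licensing and -0.28 for ORC. These groups hold 2 to 8 genes each and their order was not tested. DUT removes dUTP, which keeps uracil out of DNA. Dut (chr2:125247248-125259049, GRCm38) measured 28.5, 43.4 and 35.6 CPM in footpad 1 to 3 and 55.0, 83.3 and 84.7 CPM in flank 1 to 3, without overlap. The means were 35.8 ± 7.45 CPM and 74.3 ± 16.8 CPM (SD, n = 3), 51.8% lower in the footpad (-1.05, SE 0.22, edgeR adjusted p = 0.0429). Tk1, the thymidine kinase that salvages thymidine, measured 30.1, 63.5 and 45.1 CPM in the footpad and 74.4, 82.6 and 96.2 CPM in the flank tumors (-0.87, SE 0.26, adjusted p = 0.0957). Tyms, which makes thymidylate, measured 62.3, 93.9 and 75.8 CPM in the footpad and 116, 113 and 153 CPM in the flank tumors (-0.72, SE 0.20, adjusted p = 0.0749). Neither gene overlapped between the sites, and neither passed the test. The ribonucleotide reductase genes Rrm1 and Rrm2, which make the deoxynucleotides, did overlap. Rrm1 measured 207, 384 and 287 CPM in the footpad and 303, 436 and 492 CPM in the flank tumors (-0.49, SE 0.27). Rrm2 measured 174, 289 and 198 CPM in the footpad and 271.5, 386.5 and 375 CPM in the flank tumors (-0.64, SE 0.23, adjusted p = 0.143).

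**Figure D3:**
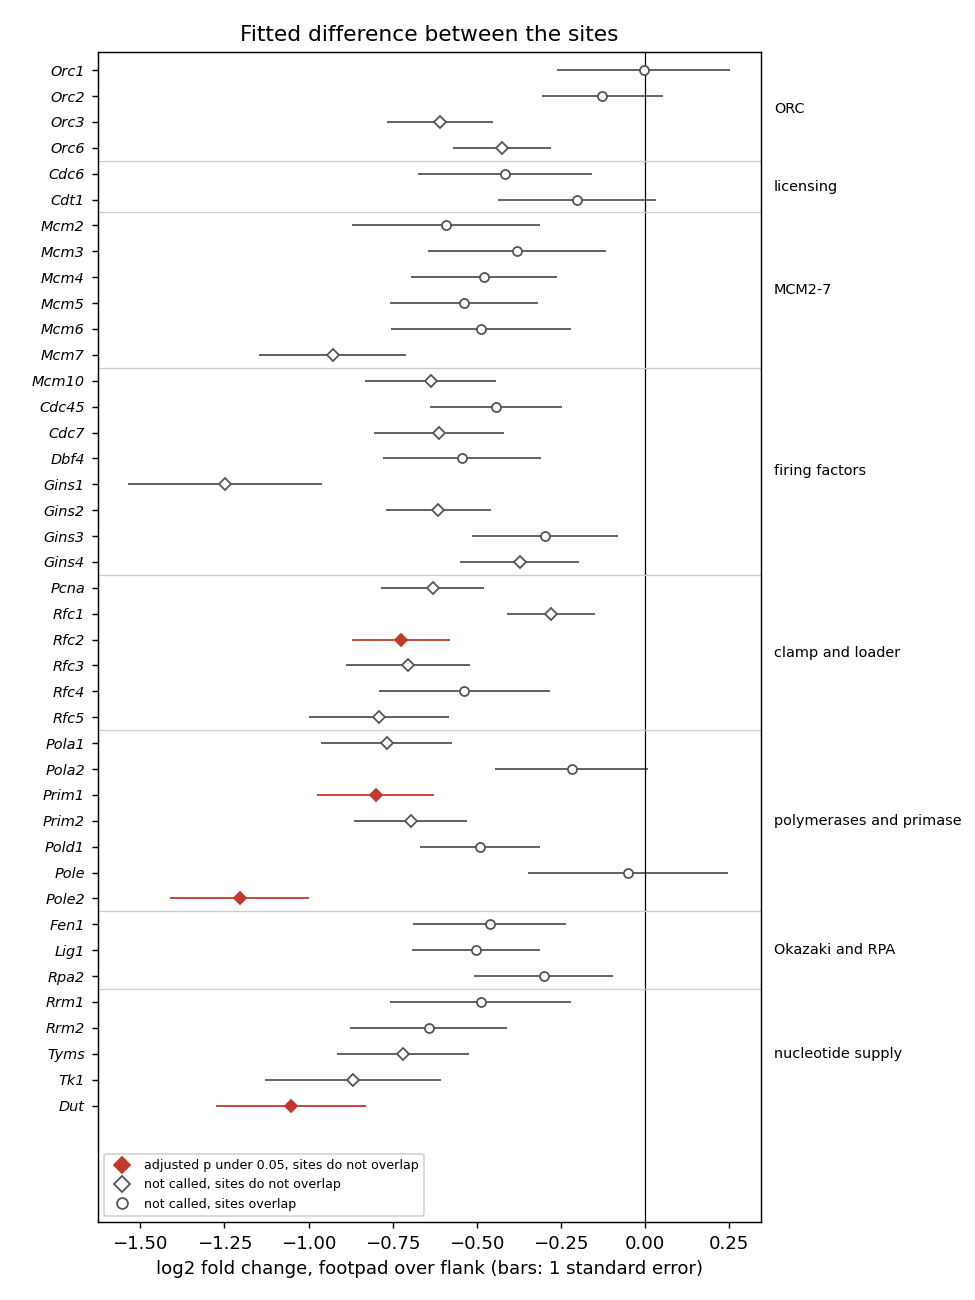
Fitted log2 fold change of footpad over flank for the 41 genes after TMM scaling, with bars of 1 standard error, genes grouped by role. Filled red diamonds mark the 4 called genes, open diamonds the other 16 whose sites do not overlap and open circles the 21 whose sites overlap; every point lies at or left of 0 with this scaling, while 9 of the genes lie right of 0 when scaled to Pmel, Tyrp1 and Dct.

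The fold changes of all genes shifted with transcript length, and the replication genes lay below the other genes at each length. Over 5 equal bins of transcript length, from short to long, the median log2 fold change of all genes ran from -0.19 to 0.19. The members' medians in the same bins were -0.63, -0.67, -0.50, -0.49 and -0.41 (7, 10, 12, 10 and 2 genes). After subtraction of the median of its bin, the members' median was -0.54 and 40 of the 41 genes were below 0. By promoter, the median was -0.50 in the 14 genes with an E2F word and -0.57 in the 20 without. Of these 5 and 10 were lower in the footpad without overlap, beside 14.9% of all genes. The difference between genes with and without a word was not tested.

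Pmel, Tyrp1 and Dct, pigment genes of the melanocyte lineage that B16F10 cells express, served as a measure of melanoma RNA. Of 17 melanocyte lineage genes, which include these 3, 14 had a fold change below 0 and 3 above, from -1.14 to 0.54. How far the pigment genes follow the number of melanoma cells rather than their pigmentation was not tested. All 3 pigment genes were abundant in every tumor, between 2400 and 8326 CPM. Their summed level was 8466, 15110 and 10800 CPM in footpad 1 to 3 and 21360, 11920 and 13830 CPM in flank 1 to 3. The sites overlapped, with the highest level in flank 1 and the lowest in footpad 1, and the difference of the log2 sums was -0.45 (two-sided exact permutation test, p = 0.3, where 0.1 is the smallest value that 3 against 3 allows). Singly, Pmel differed by -0.23 (SE 0.30, adjusted p = 0.67), Tyrp1 by -0.58 (SE 0.30, adjusted p = 0.271) and Dct by -0.50 (SE 0.33, adjusted p = 0.379). The summed level of the 41 replication genes was 2253, 3332 and 2795 CPM in the footpad and 3228, 4376 and 4596 CPM in the flank tumors. The means were 2793 ± 540 CPM and 4067 ± 735 CPM (SD, n = 3), 1.46-fold higher in the flank, and flank 1 lay just below footpad 2.

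Set against the pigment genes, the difference between the sites was not uniform among the flank tumors. Per 1000 CPM of Pmel, Tyrp1 and Dct, the 41 genes summed to 266, 221 and 259 CPM in footpad 1 to 3 and to 151, 367 and 332 CPM in flank 1 to 3. Flank 1 was thus below all footpad tumors, and flank 2 and flank 3 were above them. The log2 difference of the ratio between the sites was -0.09, and it was -0.50 without flank 1, 0.14 without flank 2 and 0.07 without flank 3. Relative to the sum of 17 melanocyte lineage genes the order was the same, with 153, 130.3 and 150 CPM per 1000 in the footpad and 105, 229 and 203 CPM in the flank tumors. Pole2 per 1000 pigment CPM measured 0.891, 0.738 and 0.996 in the footpad and 0.902, 2.02 and 1.78 in the flank tumors, with flank 1 inside the footpad range. When all genes were scaled to the 3 pigment genes, the median of all genes moved to 0.44 and that of the replication genes to -0.19, a distance of -0.63 between them. Of the 41 genes 32 were then lower and 9 higher in the footpad, 0 were called by edgeR, 1 (Gins1, -0.93, SE 0.43, adjusted p = 0.24) was lower at an unadjusted p under 0.05, beside 1.23% of all genes, and in 0 did the sites stay apart, where 1.92% of all genes did so on the lower side.

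**Figure D4:**
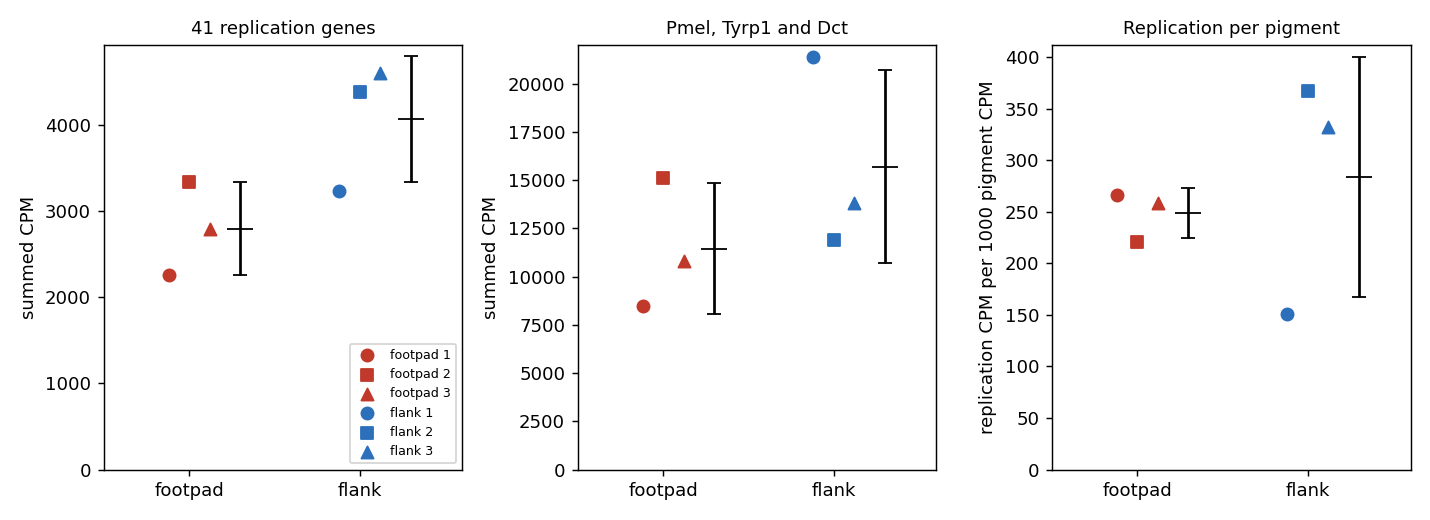
Summed TMM-scaled CPM of the 41 replication genes (left), summed CPM of Pmel, Tyrp1 and Dct (middle) and replication CPM per 1000 pigment CPM (right) in each tumor, with the mean and SD of 3 tumors as bars. Flank 1 has the highest pigment sum (21360 CPM) and the lowest ratio (151), and the other flank tumors have the highest ratios (367 and 332).

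Marker lists of other cell types were summed as well, although bulk RNA does not show which cells a transcript came from. Summed fibroblast markers were 3784, 3753 and 5067 CPM in the footpad and 182, 626 and 235 CPM in the flank tumors. Endothelial markers (353 to 406 CPM in the footpad, 200 to 239 CPM in the flank) and macrophage markers (275 to 313 CPM and 35.7 to 195 CPM) also lay apart, higher in the footpad. Of the genes, 12 of 16 fibroblast, 5 of 12 endothelial and 1 of 12 macrophage were called higher and 0 lower. This compares with 3.43% of all genes called higher and 1.44% called lower. Neutrophil markers (10.6 to 425 CPM and 5.16 to 34.8 CPM), keratinocyte markers (10.5 to 703 CPM and 1.76 to 14.9 CPM) and skeletal muscle markers (66.5 to 1308 CPM and 33.8 to 240 CPM) overlapped, with the keratinocyte and muscle maxima in footpad 2. Erythroid markers ranged from 1930 CPM in flank 3 to 36500 CPM in footpad 1, and Schwann cell markers from 387 to 454 CPM. Lymphocyte markers were near the detection limit (0.335 to 0.845 CPM in sum, with 3 of 12 genes at 0 reads). The part of these cells in the lower replication genes was not tested.

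Other genes of the cell cycle were compared as lists. Over all genes 50.3% had a fold change below 0, 1.44% were called lower and 3.43% higher. Of 45 further replication genes 41 had a fold change below 0, 4 were called lower and 0 higher (0 also by DESeq2 and at an unadjusted p under 0.05), and the median was -0.39. Rpa3, the smallest RPA subunit, measured 16.2, 20.4 and 17.5 CPM in footpad 1 to 3 and 44.7, 38.2 and 37.4 CPM in flank 1 to 3 (-1.15, SE 0.15, edgeR adjusted p = 0.0141), 55% lower in the footpad where Rpa2 was 18.9% lower. Pclaf, a PCNA-binding factor, measured 38.8, 68.3 and 50.5 CPM in the footpad and 112, 151 and 143 CPM in the flank tumors (-1.37, SE 0.23, adjusted p = 0.0253). Dscc1, of an alternative clamp loader, fell by 1.07 (SE 0.21, adjusted p = 0.0363) on the log2 scale and Gmnn, the inhibitor of CDT1, fell by 0.88 (SE 0.19, adjusted p = 0.0429).

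The G1/S regulators were mixed. Of 32 genes 22 had a fold change below 0, beside 50.3% of all genes, and the median was -0.17. In this list 2 were called lower and 1 higher, beside 1.44% and 3.43% of all genes. Cdk4, the cyclin D-dependent kinase, measured 134, 154 and 156 CPM in the footpad and 251.5, 243 and 264 CPM in the flank tumors (-0.77, SE 0.13, adjusted p = 0.0253). Fbxo5, an inhibitor of the anaphase-promoting complex, was called lower as well (-0.89, SE 0.15, adjusted p = 0.0241), while the E2F partner Rbl1 missed the threshold (-0.73, SE 0.18, adjusted p = 0.0596). Cdkn2b, which encodes the CDK4 inhibitor p15, was called higher at very low levels, with 0.876, 0.788 and 0.735 CPM in the footpad and 0.0862, 0.188 and 0.112 CPM in the flank tumors (2.61, SE 0.49, adjusted p = 0.0335).

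Of 17 replication checkpoint genes 15 had a fold change below 0 and 1, the checkpoint kinase gene Chek2, was called lower. The shares over all genes, for this list and the mitosis list, were 50.3% below 0, 1.44% called lower and 3.43% called higher. Chek2 measured 13.0, 19.2 and 18.0 CPM in the footpad and 30.4, 29.2 and 30.4 CPM in the flank tumors (-0.84, SE 0.17, adjusted p = 0.0404). Fanci (-0.82, SE 0.24, adjusted p = 0.0913) and Chek1 (-0.80, SE 0.25, adjusted p = 0.098) were not called. Of 30 mitosis genes 29 had a fold change below 0, 3 were called lower and 0 higher (0 also by DESeq2 and at an unadjusted p under 0.05), and the median was -0.43. Ncapg, a condensin subunit, measured 45.1, 53.0 and 48.8 CPM in the footpad and 89.9, 102 and 98.9 CPM in the flank tumors (-0.98, SE 0.13, adjusted p = 0.0141). Kif11, a spindle motor, fell by 0.86 (SE 0.17, adjusted p = 0.0381), and Ndc80 of the kinetochore fell by 0.81 (SE 0.17, adjusted p = 0.0447) on the log2 scale. Its partner Nuf2 was not called (-0.80, SE 0.20, adjusted p = 0.0645). None of the 17 melanocyte lineage genes was called by edgeR, where 3 passed an unadjusted p under 0.05 (2 lower, 1 higher) and DESeq2 called 1 lower, and their median was -0.17.

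**Figure D5:**
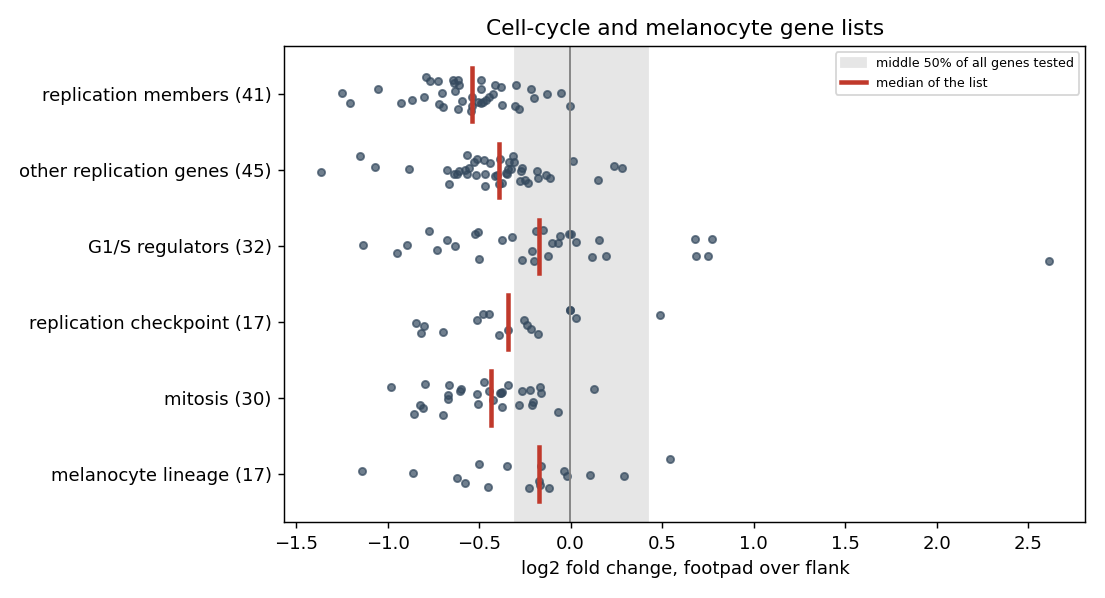
Log2 fold change of footpad over flank after TMM scaling for each tested gene of 6 lists (points), with the list median in red and the middle 50% of all genes tested in grey; scaled to Pmel, Tyrp1 and Dct the median of all genes is 0.44 higher. The medians of the 41 replication genes (-0.54), the other replication genes (-0.39), the checkpoint genes (-0.34) and the mitosis genes (-0.43) lie left of the grey band, and those of the G1/S regulators and the melanocyte lineage (both -0.17) lie inside it.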

How the data were processed

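RNA of 3 footpad and 3 flank B16F10 tumors was analysed. According to the submitters' processing notes and the methods, the authors used FastQC 0.11.7, Trimmomatic and HISAT2 2.1.0 with mm10, from stranded total RNA libraries; the counting program and its use of strand are not given in the sources used here. The authors deposited raw counts of reads for each gene and FPKM values scaled for length and depth. The FPKM served to compare levels between genes and for limma.

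The main test used edgeR 4.0.16 under R 4.3.3 (TMM, filterByExpr, glmQLFit, glmQLFTest, Benjamini-Hochberg over 17210 genes), and the SE was the log2 fold change divided by the square root of F. Alternatives used DESeq2 1.42.0, limma 3.58.1 on log2(FPKM + 1) or log2(FPKM + 0.1), other scalings and filters, and tumors left out in turn. Fits were tested on simulated data. Coordinates came from RefSeq, to which 45679 identifiers matched. The members and lists were chosen with earlier results of these data known. Named genes are the members, Pmel, Tyrp1, Dct, and up to 4 per cell cycle list with the smallest p, of which 1 is not reported here. Other tables were made in Python 3.11.15.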

Additional observations from a re-analysis of the deposited data

How the results depend on the processing

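The number of replication genes called lower, 4 with edgeR and TMM, was 17 with DESeq2, 7 among genes with at least 10 counts in every tumor, 1 with library totals, 1 with limma on log2(FPKM + 1), 1 on log2(FPKM + 0.1), and 2 when a fold change of 2 or more was required. It was 0 scaled to Pmel, Tyrp1 and Dct and 0 scaled to the melanocyte lineage, where 1 and 3 were lower at an unadjusted p under 0.05 beside 1.23% and 1.89% of all genes, and 22 were at that threshold with TMM, a count added after seeing the data. It ran from 0 to 8 with a tumor left out. Further replication genes called were 12 with DESeq2, 0 with either lineage-based scaling and 0 to 6 with a tumor left out. G1/S regulators called were 10 with DESeq2, 1 scaled to the pigment genes, 0 scaled to the lineage and 0 to 4 with a tumor left out. Checkpoint genes called were 3 with DESeq2, 0 without a filter, with library totals, with either lineage-based scaling and with limma at either pseudocount, and 0 to 3 with a tumor left out. Mitosis genes called were 10 with DESeq2, 1 with library totals and with limma at either pseudocount, 0 with either lineage-based scaling and 0 to 4 with a tumor left out. Over all 17210 genes, 1044 (6.07%) were called lower and 1685 higher with DESeq2. Scaled to the pigment genes 59 were called lower and 1024 higher, and scaled to the lineage 58 were called lower. With a tumor left out, 0 to 274 were called lower and 0 to 713 higher. The causes were not tested.

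The footpad and flank tumors share replicate numbers. Deviations from the site means correlated weakly in same-numbered tumors (r = 0.0544, -0.0965 and -0.115). Between tumors of different numbers r ran from -0.20 to 0.26. With 3 tumors per site these values cannot settle whether the numbers pair tumors of 1 mouse. With the replicate block 0 genes were called, among members, lists and all genes alike, 30 members were lower at an unadjusted p under 0.05 beside 8.29% of all genes, and Orc1 (0.00743) and Pole (0.0101) changed sign.

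The median of the members stayed below 0 under every alternative. It was -0.19 scaled to the pigment genes, and between -0.68 and -0.42 with a tumor left out. Centring on transcript length, also added after seeing the data, left it at -0.54. The log2 difference of the replication to pigment ratio ran from -0.50 without flank 1 to 0.14 without flank 2. Single genes changed sign as follows. Scaled to Pmel, Tyrp1 and Dct, the log2 fold change was 0.31 for Orc1, 0.24 for Orc2, 0.14 for Cdt1, 0.0591 for Gins3, 0.00677 for Gins4, 0.15 for Rfc1, 0.20 for Pola2, 0.25 for Pole, 0.0433 for Rpa2 and 0.21 for Pmel. Scaled to the lineage, it was 0.19 for Orc1, 0.12 for Orc2, 0.0288 for Cdt1, 0.0219 for Rfc1, 0.0741 for Pola2, 0.14 for Pole and 0.0661 for Pmel. Orc1 was also 0.0169 with 10 counts in every tumor, 0.0114 with upper-quartile scaling and -0.20 to 0.19 with a tumor left out. Pole was 0.00675 with limma on log2(FPKM + 0.1) and -0.33 to 0.11 with a tumor left out. Over 16 alternatives Pole2 was called in 9, Dut in 6, Rfc2 in 5, and Prim1 and Gins1 in 4 each.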

Other observations

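Within complexes, the genes of some partner proteins did not keep a fixed proportion between the sites. In all, 6 ratios of CPM were computed, with genes chosen after their values were seen, so the values are descriptions. The ratio of Pole2 to Pole was 0.125, 0.126 and 0.161 in footpad 1 to 3 and 0.451, 0.267 and 0.272 in flank 1 to 3, without overlap, a log2 difference of -1.23. Gins1 over Gins3 was 0.646, 0.896 and 0.729 in the footpad and 1.44, 1.31 and 1.72 in the flank tumors (-0.98). Mcm7 over Mcm3 was 0.508, 0.49 and 0.498 in the footpad and 0.836, 0.67 and 0.72 in the flank tumors (-0.57), the tightest of the 6 among the footpad tumors. Pola1 over Pola2 was 2.87, 4.18 and 3.54 in the footpad and 4.94, 4.45 and 6.05 in the flank tumors (-0.55). Orc3 over Orc1 (-0.61) and Prim1 over Pola2 (-0.63) overlapped between the sites. In all 6 ratios flank 1 lay above all footpad tumors, unlike its place in the ratio of replication to pigment genes. Flank 1 was the highest of all tumors in the Pole2, Mcm7, Orc3 and Prim1 ratios. In the Pole2 and Orc3 ratios it stood apart from flank 2 and flank 3. A ratio of 2 genes shows unequal change and does not say which of them changed. Fold changes rose with transcript length (Spearman rho 0.22 over all genes tested and 0.38 over the members). Pole2, Gins1, Mcm7 and Prim1 have shorter transcripts than the genes they were divided by, and Pola1 and Orc3 have longer ones. The part of length in these ratios was not tested.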
